A study of Homo sapiens with 8 samples.

Results

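Zinc finger genes with a ZNF number symbol on chromosome 19 were examined in nascent transcription data from HCT116, an established colorectal carcinoma cell line. Members were chosen by symbol, by position on chromosome 19 and by a gene body signal above 0.5 CPM (a gene's share of all counted reads, scaled to a fixed library total) in at least 2 of 8 libraries. Of 239 rows with such a symbol, 160 were members and 79 lay under this filter, out of 16686 gene bodies that passed in the whole genome. The data were from precision run-on sequencing (PRO-seq), which maps RNA that engaged polymerases extend in isolated nuclei. A total of 4 groups of 2 libraries were compared: wild-type (WT) cells in normoxia, WT cells after 90 min at 1% O2, and HIF1A-/- cells in each of these 2 conditions, all with the DMSO vehicle. HIF1A encodes the oxygen-regulated subunit of hypoxia-inducible factor 1, and in the knockout 2 of its exons were disrupted by homologous recombination. One knockout line was compared with its parent, so that the deletion and any other difference between the lines cannot be told apart.

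Most zinc finger genes of this chromosome encode KRAB zinc finger proteins. Their tandem C2H2 fingers bind DNA, often in transposable elements, and the KRAB domain recruits TRIM28 (KAP1), which brings the histone methyltransferase SETDB1 and HP1 proteins to form H3K9me3 heterochromatin. The genes arose by repeated tandem duplication, and neighbouring members are therefore similar in sequence and lie in a few large clusters.

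The HIF1A gene body gave 134 and 150 CPM in WT normoxia, 129 and 164 CPM in WT hypoxia, 157 and 141 CPM in HIF1A-/- normoxia and 172 and 166 CPM in HIF1A-/- hypoxia. The count spans the whole gene body and therefore does not test the disruption of 2 exons. The gene body tables held 18125234 to 23622392 reads a library while 2783581 to 5966348 lay in regions around the transcription start site (TSS), the lowest being HIF1A-/- normoxia replicate 1. All 7 epithelial markers were transcribed, although ELF3 averaged 48.3 CPM in WT and 10.5 CPM in HIF1A-/- normoxia, and its part in the results was not tested. Among markers of other cell types, the highest library was 0.628 CPM over the leukocyte markers (CD79A, with PTPRC, CD3E and LYZ at most 0.444 CPM). Of the fibroblast markers, COL1A1 reached 50.3 and PDGFRB 6.18 CPM, and COL1A2 and DCN at most 0.331 CPM. The endothelial markers KDR, CDH5 and PECAM1 reached 2.92, 1.65 and 0.197 CPM, and the neural markers RBFOX3, SNAP25 and GFAP 9.74, 2.75 and 0.369 CPM.

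The promoters of 3 genes from the same cluster are shown because 2 of them, ZNF91 and ZNF675, were nearly without signal in HIF1A-/- cells whereas ZNF431 was at similar levels in both lines. Each sequence is the 250 bases before the TSS, 5′ to 3′, from the GRCh37 genome. ZNF91 is at chr19:23578363-23578612 on the minus strand, ZNF675 at chr19:23870018-23870267 on the minus strand and ZNF431 at chr19:21324562-21324811 on the plus strand. Capitals mark the longest run of bases that all 3 share.
ZNF91: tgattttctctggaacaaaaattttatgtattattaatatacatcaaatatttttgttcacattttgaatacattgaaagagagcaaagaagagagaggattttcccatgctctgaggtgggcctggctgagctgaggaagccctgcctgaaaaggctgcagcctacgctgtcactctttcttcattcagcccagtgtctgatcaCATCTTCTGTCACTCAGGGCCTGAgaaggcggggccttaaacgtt
ZNF675: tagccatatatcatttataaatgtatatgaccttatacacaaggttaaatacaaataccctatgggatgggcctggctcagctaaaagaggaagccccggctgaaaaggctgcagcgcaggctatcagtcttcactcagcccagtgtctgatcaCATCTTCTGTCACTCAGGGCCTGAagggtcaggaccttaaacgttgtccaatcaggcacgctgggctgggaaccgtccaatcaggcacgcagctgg
ZNF431: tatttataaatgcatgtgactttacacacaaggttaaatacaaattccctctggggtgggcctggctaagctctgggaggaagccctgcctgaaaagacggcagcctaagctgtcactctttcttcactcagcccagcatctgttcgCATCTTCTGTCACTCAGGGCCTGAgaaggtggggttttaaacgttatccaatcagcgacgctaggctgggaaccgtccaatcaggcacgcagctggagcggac

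The shared run of 24 bases was found, on either strand, in 7 of all 23193 promoters of the same length (0.0302%). All 7 belonged to the 21 to 24.5 Mb window of chromosome 19, namely the members ZNF85, ZNF431, ZNF91 and ZNF675 and the rows ZNF208, ZNF492 and ZNF99, which were under the expression filter. The run was therefore held by genes that were silent in both lines and by genes nearly silent in one line. It was also held by genes transcribed in both, namely ZNF431 and, at a lower level in HIF1A-/- cells, ZNF85. Promoters of the 12 window members had a median of 5.5 CG dinucleotides in 250 bases, against 15 for all members, 10 for the window rows under the filter and 17 for all genes tested.

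The members were transcribed at levels near those of other genes. Their median gene body density in WT normoxia was 1.10 RPKM (CPM per kilobase of gene body), with quartiles of 0.622 and 1.92 RPKM, against a median of 1.29 RPKM over all genes tested. In 140 of the 160 members the highest library exceeded 5 CPM. Of the 79 rows under the filter, 77 stayed under 0.5 CPM in every library. The members nearest the filter were ZNF772 and ZNF773, with second-highest libraries of 0.641 and 0.677 CPM, and the nearest rows outside it were ZNF556 and ZNF223 at 0.386 and 0.345 CPM. Silent rows were unevenly placed: 8 of 10 rows between 19.8 and 20.8 Mb (midpoints) and 13 of 25 rows in the window lay under the filter, against 2 of 15 between 7.08 and 9.87 Mb. Exact repeats within the chromosome were few, since a median of 99.5% of 75-base windows in member gene bodies occurred once on chromosome 19 (lowest, 77.7%, in ZNF799). Copies on other chromosomes, near matches and shorter reads were not counted, so read ambiguity as a whole was not measured.

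The window from 21 to 24.5 Mb (hg19) was set with the genotype difference known, and the values of its members are therefore given as a description without a test. All 12 members had lower gene body counts in both HIF1A-/- libraries than in both WT libraries in normoxia, and 10 of 12 did so in hypoxia. The same complete separation downwards was seen in 17.0% of all genes tested in normoxia and in 22.6% in hypoxia. The median log2 difference of the 12 members was −0.95 in normoxia and −0.87 in hypoxia, where the median over all genes tested was −0.01 and 0.00. Window members took 0.0420 to 0.0440% of gene body reads in WT libraries and 0.0241 to 0.0296% in HIF1A-/- libraries.

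ZNF91, a primate KRAB zinc finger protein known for repressing SVA retrotransposons, had 32.0 and 37.8 CPM in WT normoxia and 32.4 and 40.0 CPM in WT hypoxia. In HIF1A-/- cells it had 0.136 and 0.189 CPM in normoxia and 0.0984 and 0.296 CPM in hypoxia, which were 3, 4, 2 and 6 reads. Every WT library was far above every HIF1A-/- library. ZNF91 passed the expression filter only through its WT libraries, so its values and read ratios are a description. The ratios use the summed reads of the 2 libraries in each group. The ratio of WT to HIF1A-/- reads was 214 in normoxia (95% exact conditional binomial interval, 104 to 533) and 186 in hypoxia (94.1 to 431), intervals that cover counting error only. At the TSS the HIF1A-/- libraries held 0 to 2 reads against 64.4 to 81.1 CPM in WT, and no WT and HIF1A-/- library overlapped there either.

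ZNF675, which encodes a protein known to bind TRAF6, had 25.3 and 19.9 CPM in WT normoxia and 20.3 and 18.03 CPM in WT hypoxia. The HIF1A-/- libraries had 0.636 and 0.568 CPM in normoxia and 0.787 and 1.04 CPM in hypoxia. Its read ratio was 37.8 (25.6 to 58.2) in normoxia and 20.9 (15.04 to 29.9) in hypoxia. ZNF724, the member before ZNF91 along the chromosome, retained a fraction of its signal. It had 23.1, 20.5, 19.6 and 17.3 CPM in the 4 WT libraries against 4.36, 5.34, 4.62 and 4.44 CPM in the 4 HIF1A-/- libraries, with log2 differences of −2.17 ± 0.21 (SE) in normoxia and −2.03 ± 0.21 in hypoxia. In such bulk libraries, fewer cells that transcribe a gene and less transcription per cell cannot be told apart.

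An intermediate set of members was lower in HIF1A-/- cells by smaller amounts. ZNF85 had 7.06 to 9.66 CPM in WT and 2.84 to 4.09 CPM in HIF1A-/- libraries. ZNF493 had 4.001 to 5.67 CPM in WT and 1.43 to 2.07 CPM in HIF1A-/- libraries. The groups of both genes were fully separate, with log2 differences of −1.26 and −1.43 in normoxia. ZNF254 had 9.37 to 12.1 CPM in WT and 4.09 to 6.36 CPM in HIF1A-/- libraries. ZNF708, ZNF738 and ZNF100 lay closer to WT, with log2 differences in normoxia of −0.88, −0.88 and −0.87 and in hypoxia of −0.58, −0.63 and −0.72.

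Near the start of the window, 3 adjacent members differed less between the lines. ZNF430 had 50.9 to 53.3 CPM in WT and 39.9 to 47.3 CPM in HIF1A-/- libraries. Its log2 difference was −0.28 ± 0.13 in normoxia and −0.18 ± 0.13 in hypoxia. ZNF714 had 74.6 to 83.0 CPM in WT and 54.6 to 74.7 CPM in HIF1A-/- libraries, which overlapped. Its log2 difference was −0.39 ± 0.13 in normoxia and −0.21 ± 0.13 in hypoxia. ZNF431, reported as a repressor of the Hedgehog receptor gene PTCH1, had 66.5 to 68.7 CPM in WT and 60.05 to 72.4 CPM in HIF1A-/- libraries. Its log2 difference was −0.11 ± 0.12 in normoxia and 0.03 ± 0.12 in hypoxia, within 1 standard error of 0 in both. ZNF431, which differed little, and genes nearly without signal thus lay in the same cluster and shared promoter sequence, as the promoters of ZNF431 and ZNF91 show.

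**Figure D1:**
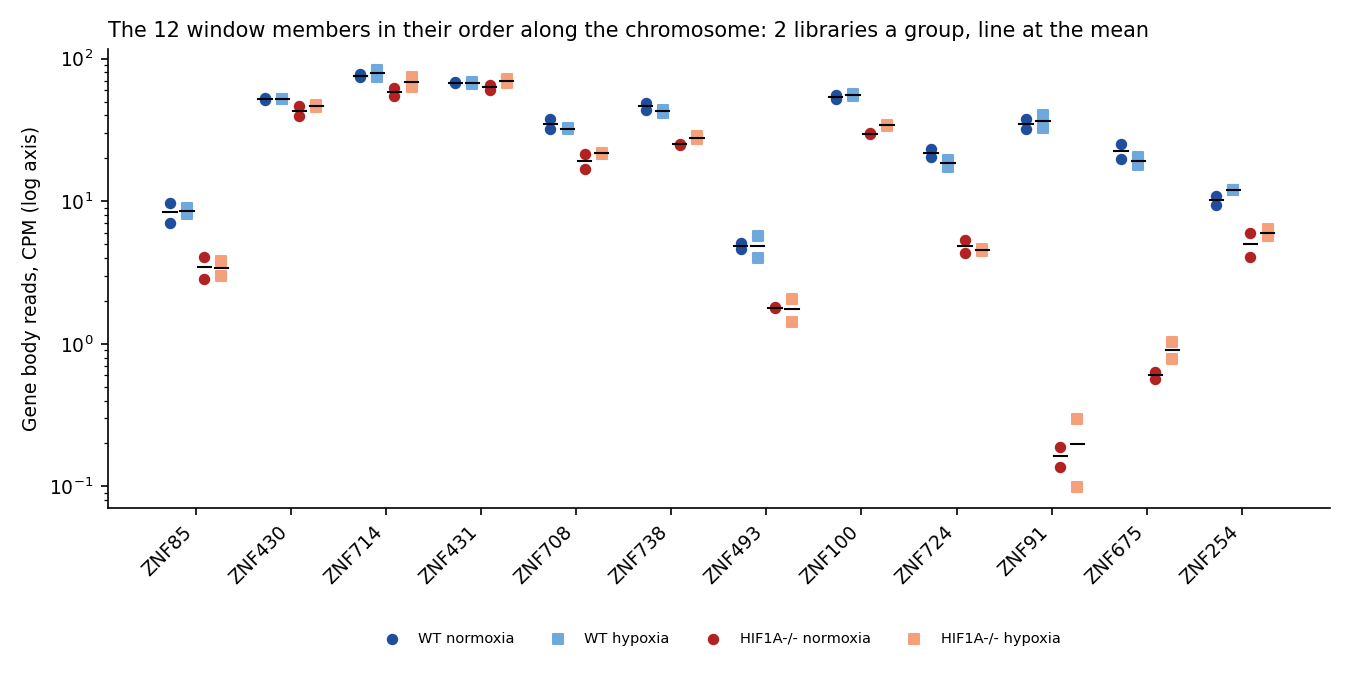
Gene body reads in CPM (log axis) of the 12 window members in their order along the chromosome, with 1 point a library, 2 libraries in each of the 4 groups and a line at each group mean. ZNF91 and ZNF675 fall from 18.03 to 40.0 CPM in WT libraries to at most 1.04 CPM in HIF1A-/- libraries, whereas the groups of ZNF431 overlap.

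The 13 other zinc finger rows of the window did not exceed 0.193 CPM in any library of either line. Only 1 further gene of the window passed the filter, the pseudogene IPO5P1, which lies just beyond ZNF724 on the same strand. It had 21.7 and 24.6 CPM in WT normoxia and 2.86 and 4.11 CPM in HIF1A-/- normoxia, and 21.5 and 20.4 against 4.38 and 5.97 CPM in hypoxia. The lower signal in this window was therefore also seen in the only tested gene there that is no zinc finger gene.

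TSS counts, taken from 551 bp around the start, a region apart from the gene body, gave a like order of differences among the window members. All 12 window members were lower in HIF1A-/- cells at the TSS in both conditions, with median log2 differences of −0.81 in normoxia and −0.78 in hypoxia. ZNF91 was at −7.89 and −7.92, ZNF675 at −4.92 and −5.70 and ZNF724 at −2.10 and −1.98. Across the 12 members the gene body and TSS differences had Pearson's r of 0.995 in normoxia and 0.985 in hypoxia, over genes of the same libraries and therefore given without a test. Spearman's rank correlation was 0.902 and 0.881. Outside the window, r was 0.821 and 0.742 over 144 members, but the rank correlation was lower, at 0.520 and 0.527. There, 52 of 144 in normoxia and 62 of 144 in hypoxia had opposite signs at the 2 regions.

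**Figure D2:**
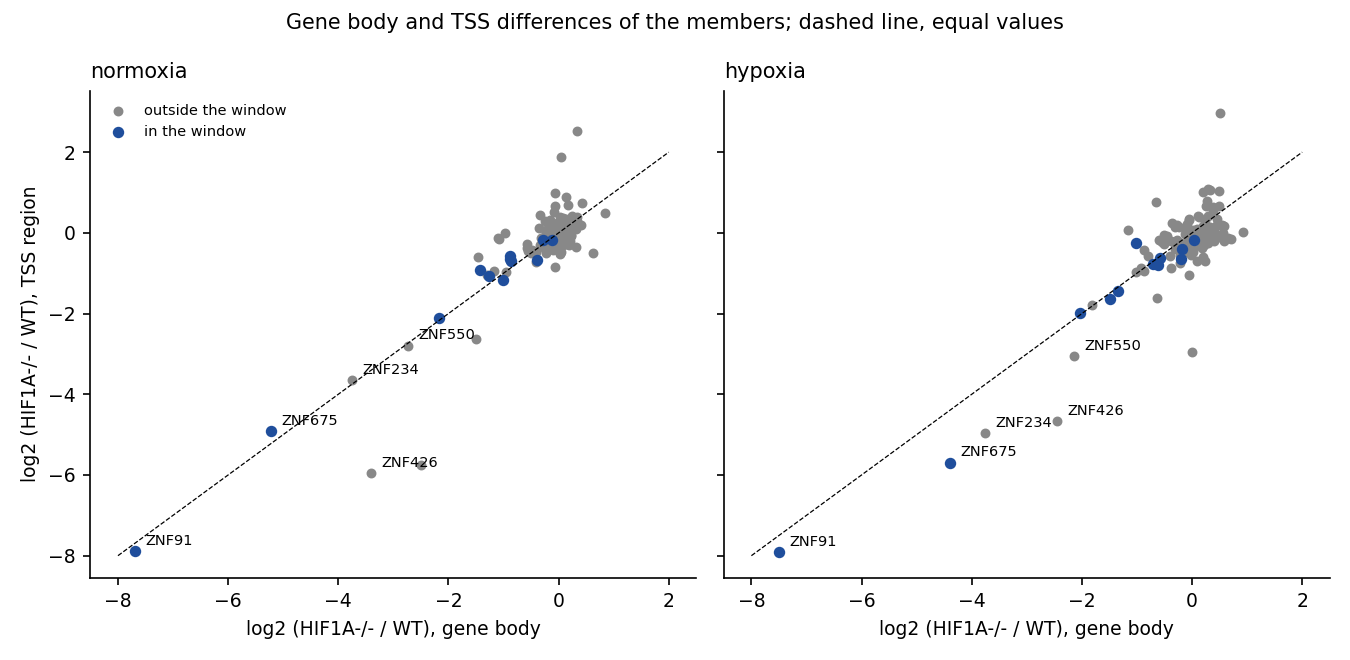
Log2 differences between HIF1A-/- and WT cells in the gene body (x axis) and in the TSS region (y axis) for the 156 members that passed both filters, in normoxia and in hypoxia, with the dashed line at equal values. The most reduced members lie near the line or below it, with ZNF91 under −7 on both axes.

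The next question was how many of the 148 members outside the window differed between the lines. In normoxia 4 were lower and 0 were higher in HIF1A-/- cells at a false discovery rate of 10% (edgeR quasi-likelihood test), where 1.05% of all 16686 gene bodies were called lower and 0.725% higher. In hypoxia 5 were lower and 0 higher, where 2.79% of all gene bodies were called lower and 1.47% higher. At an unadjusted p under 0.05, 0 members were higher and 12 lower in normoxia (3.92% and 5.08% of all gene bodies), and 10 were higher and 11 lower in hypoxia (6.68% and 9.07%). DESeq2 called 0 higher and 5 lower in each condition. A total of 4 members were called lower in both conditions, which share no libraries, as were 0.989% of all gene bodies. The replicate numbers paired the libraries. With the replicate as a block the calls in normoxia rose to 9 lower and 0 higher (6.39% and 3.93% of all gene bodies), and in hypoxia to 13 lower and 16 higher (15.1% and 13.1% of all gene bodies). The share of members called lower with the block, 9 or 13 of 148, was thus close to or under that of all genes.

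ZNF234, in the 44 to 45 Mb cluster, was the most reduced of the called members. It had 6.14 and 7.78 CPM in WT normoxia against 0.364 and 0.662 CPM in HIF1A-/- normoxia, and 6.63 and 9.36 against 0.541 and 0.641 CPM in hypoxia. The log2 difference was −3.76 ± 0.38 in both conditions (edgeR adjusted p = 0.00406 in normoxia and 0.00307 in hypoxia), and it was also called with each library left out in turn. Its neighbours on either side were not called: ZNF225 had log2 differences of −0.15 and 0.11 and ZNF226 of 0.06 and 0.23.

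ZNF426, a member of the cluster near 9.6 Mb, had 4.83 and 5.08 CPM in WT normoxia against 0.136 and 0.804 CPM in HIF1A-/- normoxia, the lower value being 3 reads. In hypoxia it had 4.63 and 5.33 against 1.03 and 0.789 CPM. The log2 differences were −3.41 ± 0.60 (edgeR adjusted p = 0.0433) and −2.45 ± 0.56 (edgeR adjusted p = 0.0729). ZNF266 and ZNF121, the nearest members, were at −0.02 and −0.01 in normoxia.

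ZNF550, in the cluster at the long-arm end, had 2.95 and 4.19 CPM in WT normoxia against 0.227 and 0.851 CPM in HIF1A-/- normoxia, and 4.21 and 4.87 against 0.836 and 1.23 CPM in hypoxia. The differences were −2.73 ± 0.54 (edgeR adjusted p = 0.0704) and −2.14 ± 0.51 (edgeR adjusted p = 0.0846). ZNF44 was reduced less, from 14.5 and 17.1 to 6.18 and 7.95 CPM in normoxia and from 13.4 and 14.1 to 7.03 and 8.14 CPM in hypoxia. Its differences were −1.17 ± 0.20 (edgeR adjusted p = 0.0411) and −0.87 ± 0.20 (edgeR adjusted p = 0.0759). Its nearest members, ZNF136 and ZNF799, had log2 differences of −0.28 and −0.41 in normoxia and −0.01 and −0.13 in hypoxia, and those of ZNF550, ZNF773 and ZNF416, of −0.02 and 0.03 in normoxia and 0.50 and 0.33 in hypoxia. None of the nearest members of these 4 genes was called.

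The calls of ZNF426, ZNF550 and ZNF44 depended on single libraries. In normoxia the 4 members called lower became 1 without WT normoxia replicate 1 or 2 or WT hypoxia replicate 2, and 2 without WT hypoxia replicate 1 or HIF1A-/- normoxia replicate 1. In hypoxia the 5 became 2 without WT normoxia replicate 1 or 2 or WT hypoxia replicate 1, and 1 without WT hypoxia replicate 2 or HIF1A-/- hypoxia replicate 1 or 2. Without either WT normoxia library the adjusted p of ZNF426 in normoxia was 0.198 or 0.235, and that of ZNF44 was 0.166 or 0.324. Over all alternatives the adjusted p in hypoxia ran up to 0.367 for ZNF426 and 0.457 for ZNF44, and that of ZNF550 up to 0.405 in normoxia and 0.452 in hypoxia. At the TSS, where 3 members outside the window were called lower and 0 higher in each condition (0.434% and 0.224% of all TSS regions lower and higher in normoxia, 0.664% and 0.44% in hypoxia), the 3 were ZNF234, ZNF426 and ZNF550. At an unadjusted p under 0.05, 3 members were higher and 9 lower at the TSS in normoxia (4.26% and 3.73% of all TSS regions), and 4 were higher and 17 lower in hypoxia (7.35% and 6.32%). DESeq2 called 0 higher and 3 lower in normoxia and 1 higher and 4 lower in hypoxia. The TSS log2 differences were −3.64 and −4.96 for ZNF234, −5.95 and −4.67 for ZNF426 and −2.79 and −3.05 for ZNF550. With the block 6 of 144 were called lower and 1 higher in normoxia (2.04% and 2.24% of all TSS regions), and 15 lower and 6 higher in hypoxia (6.97% and 7.47%).

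ZNF850 was the fifth member by p in normoxia, with 5.89 and 7.56 CPM in WT and 2.86 and 2.55 CPM in HIF1A-/- libraries, and missed the threshold (log2 difference −1.30 ± 0.29, edgeR adjusted p = 0.109, 0.0174 with the replicate block). No member was called higher without the replicate block, whereas with it 0 members outside the window were called higher in normoxia and 16 in hypoxia. The 5 that came first in normoxia were ZNF888, ZNF547, ZNF419, ZNF653 and ZNF446, with log2 differences between 0.31 and 0.63 and adjusted p of at least 0.609. In hypoxia they were ZNF575, ZNF28, ZNF446, ZNF552 and ZNF329, with log2 differences between 0.47 and 0.93 and adjusted p of at least 0.214, and all 5 were called with the block. ZNF446 was on both lists, with 9.95 and 10.5 against 12.5 and 12.8 CPM in normoxia and 8.85 and 7.70 against 11.3 and 13.2 CPM in hypoxia.

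**Figure D3:**
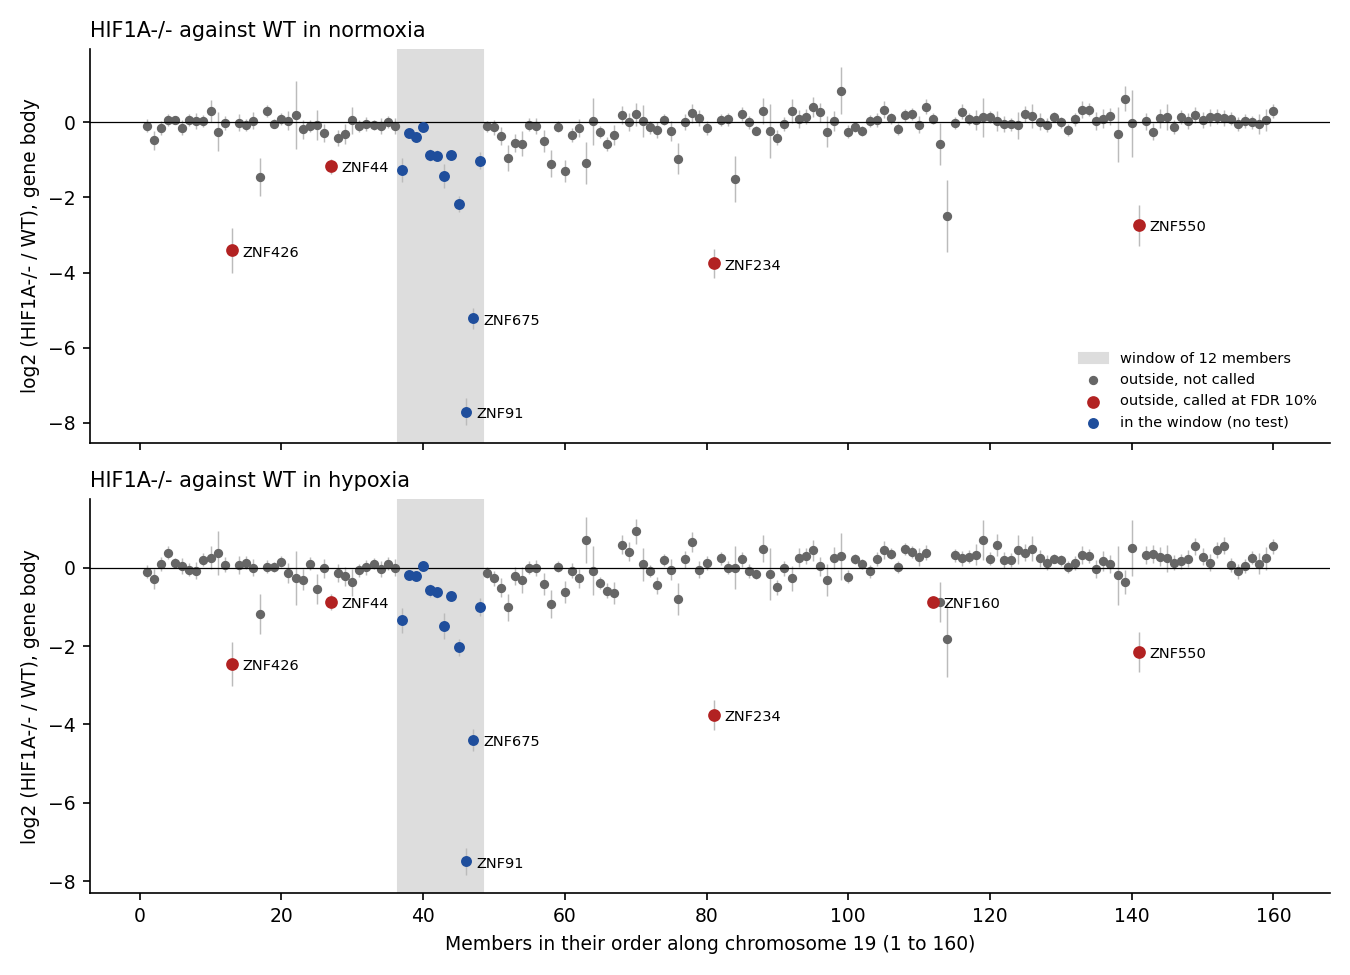
Log2 difference in gene body reads between HIF1A-/- and WT cells (y axis, bars show the standard error) for the 160 members in their order along the chromosome (x axis), in normoxia above and hypoxia below. The 12 window members (shaded) have medians of −0.95 and −0.87, and the called members outside it are single genes whose nearest members were not called.

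The chromosome was divided into 13 segments by gene position. The 5 members between 35.2 and 35.5 Mb were all lower in HIF1A-/- cells in both conditions (median log2 differences −0.55 and −0.32). Between 36.7 and 38.2 Mb, 11 of 12 were lower in normoxia and 9 of 12 in hypoxia (medians −0.30 and −0.17). Without the replicate block no member was called in either segment. The other tested genes in these segments had medians of 0.03 and 0.07 in normoxia and 0.21 and 0.12 in hypoxia. In hypoxia, 21 of 28 members between 52.1 and 54.1 Mb and 36 of 41 between 56.0 and 59.0 Mb were higher in HIF1A-/- cells (medians 0.25 and 0.23). The other tested genes in these 2 segments had medians of 0.09 and 0.18 in hypoxia, and the 961 other tested genes of chromosome 19 had a median of 0.21. The difference between members and other genes was not tested.

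**Figure D4:**
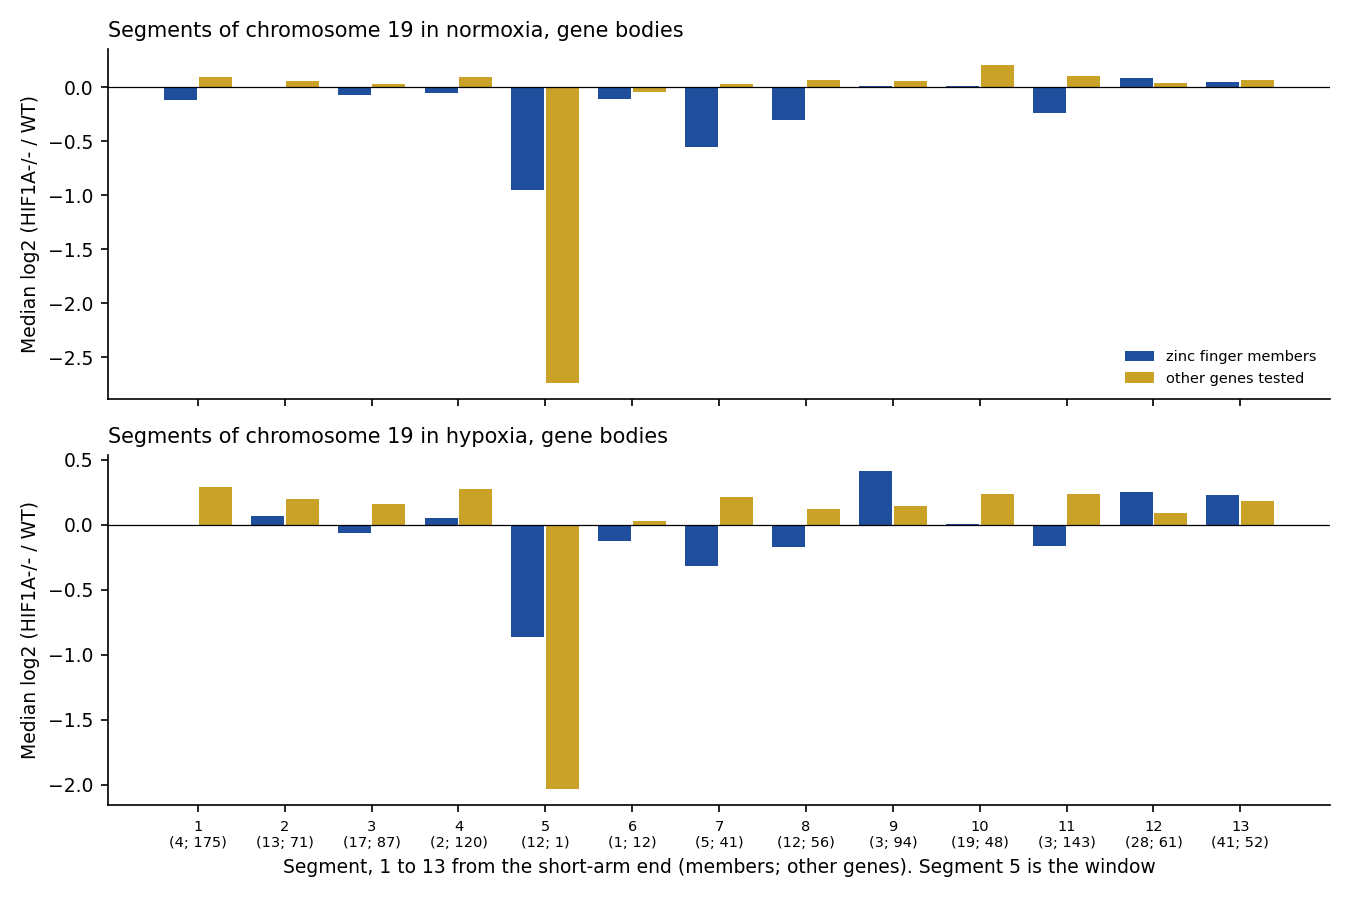
Median log2 difference between HIF1A-/- and WT cells (y axis) of zinc finger members and of the other tested genes in 13 segments of chromosome 19, with the number of each in brackets, in normoxia above and hypoxia below. Segment 5, the window, has medians of −0.95 and −0.87 for its 12 members, and its single other gene is IPO5P1.

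Zinc finger genes elsewhere were set beside the members. Of 203 tested genes with a ZNF number symbol on other chromosomes, 7 were called lower and 0 higher in normoxia (1.05% and 0.725% of all gene bodies). In hypoxia 13 were lower and 0 higher (2.79% and 1.47%), and the median was −0.02 in both conditions. Of these, 1 was higher and 14 lower in normoxia at an unadjusted p under 0.05 (3.92% and 5.08% of all gene bodies). In hypoxia 6 were higher and 24 lower (6.68% and 9.07%). DESeq2 called 0 higher and 8 lower in normoxia and 1 higher and 17 lower in hypoxia. With the replicate block 17 were lower and 1 higher in normoxia (6.39% and 3.93% of all gene bodies), and 38 lower and 16 higher in hypoxia (15.1% and 13.1%). Of 20 other zinc finger symbols on chromosome 19, 2 and 3 were called lower and 0 higher. DESeq2, the block and an unadjusted p under 0.05 also gave 0 higher, and with the block 4 and 5 were lower. Thus 2.70% and 3.38% of the members outside the window were called lower, against 3.45% and 6.40% of the zinc finger genes on other chromosomes. Over all gene bodies these shares were 1.05% and 2.79%.

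Few gene bodies were called for a response to 90 min of hypoxia without the replicate block, among members as over all genes. In WT cells 1 of 160 members rose and 0 fell, where 0.431% of all gene bodies were called higher. At an unadjusted p under 0.05, 5 members were higher and 0 lower (3.51% and 1.10% of all gene bodies), and DESeq2 called 1 higher and 0 lower. In HIF1A-/- cells 0 members were called, as in all gene bodies (0%), with 1 member higher and 0 lower at an unadjusted p under 0.05, and DESeq2 called 0. With the block, 2 members rose and 1 fell in WT cells (3.73% and 1.77% of all gene bodies). The window members had median log2 differences with hypoxia of −0.03 in WT and 0.13 in HIF1A-/- cells, with 0 called by edgeR or DESeq2 and 0 at an unadjusted p under 0.05.

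The member that rose was ZNF160, a KRAB zinc finger protein reported to repress TLR4. It had 31.2 and 38.1 CPM in WT normoxia and 69.2 and 85.9 CPM in WT hypoxia, a log2 difference of 1.13 ± 0.16 (edgeR adjusted p = 0.0411). The HIF1A-/- libraries had 34.8 and 39.5 CPM in normoxia and 41.3 and 43.6 CPM in hypoxia, a difference of 0.15 ± 0.15 (edgeR adjusted p = 1). Both hypoxic WT libraries thus stood above the 6 others. In hypoxia ZNF160 was lower in HIF1A-/- than in WT cells (−0.88 ± 0.15, edgeR adjusted p = 0.0299, and 0.222 without WT hypoxia replicate 2, 0.189 and 0.139 without HIF1A-/- hypoxia replicate 1 or 2). The difference between the genotypes in the response was 0.98 ± 0.22 and was not called without the block (edgeR adjusted p = 0.645), where 0.0539% of all gene bodies were called higher, and was called with it (edgeR adjusted p = 0.0623) and with DESeq2. It was the only member of 160 (0.625%) under an unadjusted p of 0.05 in that comparison, where 1.26% of all gene bodies were higher and 0.102% lower. Of all 16686 gene bodies, 64 were called higher for this difference with the block and 68 with DESeq2. The rise was not called without either WT normoxia library (edgeR adjusted p = 0.546 and 0.408) or without WT hypoxia replicate 2 (0.319).

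At the TSS ZNF160 had 99.0 and 90.0 CPM in WT normoxia and 116 and 176 CPM in WT hypoxia (log2 difference 0.66, edgeR adjusted p = 0.922, 0.0731 with the block). The nearest members, ZNF888 and ZNF415, had gene body differences in WT hypoxia of 0.04 and 0.75, neither of them called. The ZNF160 promoter is shown because this was the only member called for a rise with hypoxia. It is the 250 bases at chr19:53606688-53606937 on the minus strand of GRCh37, 5′ to 3′, with CG dinucleotides in capitals.
ZNF160: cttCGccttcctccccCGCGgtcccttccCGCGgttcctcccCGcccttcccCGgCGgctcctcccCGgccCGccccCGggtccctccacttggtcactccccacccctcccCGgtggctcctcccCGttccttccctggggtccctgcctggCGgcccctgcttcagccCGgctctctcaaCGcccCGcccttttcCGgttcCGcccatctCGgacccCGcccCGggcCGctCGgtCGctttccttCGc

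This promoter held 26 CG dinucleotides, against 3, 6 and 8 in those of ZNF91, ZNF675 and ZNF431. The core letters of the hypoxia response element, searched as ACGTG on both strands, were not in this window of 250 bases. They were in 25 of 160 member promoters (15.6%), in 0 of 12 window promoters and in 20.5% of the promoters of all genes tested. The related letters GCGTG were in 38.8% of member promoters, in 5 of 12 window promoters (41.7%) and in 40.5% of the promoters of all genes tested.

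Next by p in WT hypoxia were ZNF419 and ZNF709 among the higher members. ZNF419 had 1.69 and 1.66 CPM in normoxia and 4.11 and 3.13 CPM in hypoxia (log2 difference 1.08 ± 0.32, edgeR adjusted p = 0.733, 0.0756 with the block). Among the lower were ZNF222, ZNF571 and ZNF473, the last of which encodes a component of the U7 snRNP for histone pre-mRNA processing. ZNF473 had 53.4 and 46.5 CPM in normoxia and 43.6 and 33.8 CPM in hypoxia (−0.40 ± 0.19, edgeR adjusted p = 0.897, 0.0802 with the block).

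**Figure D5:**
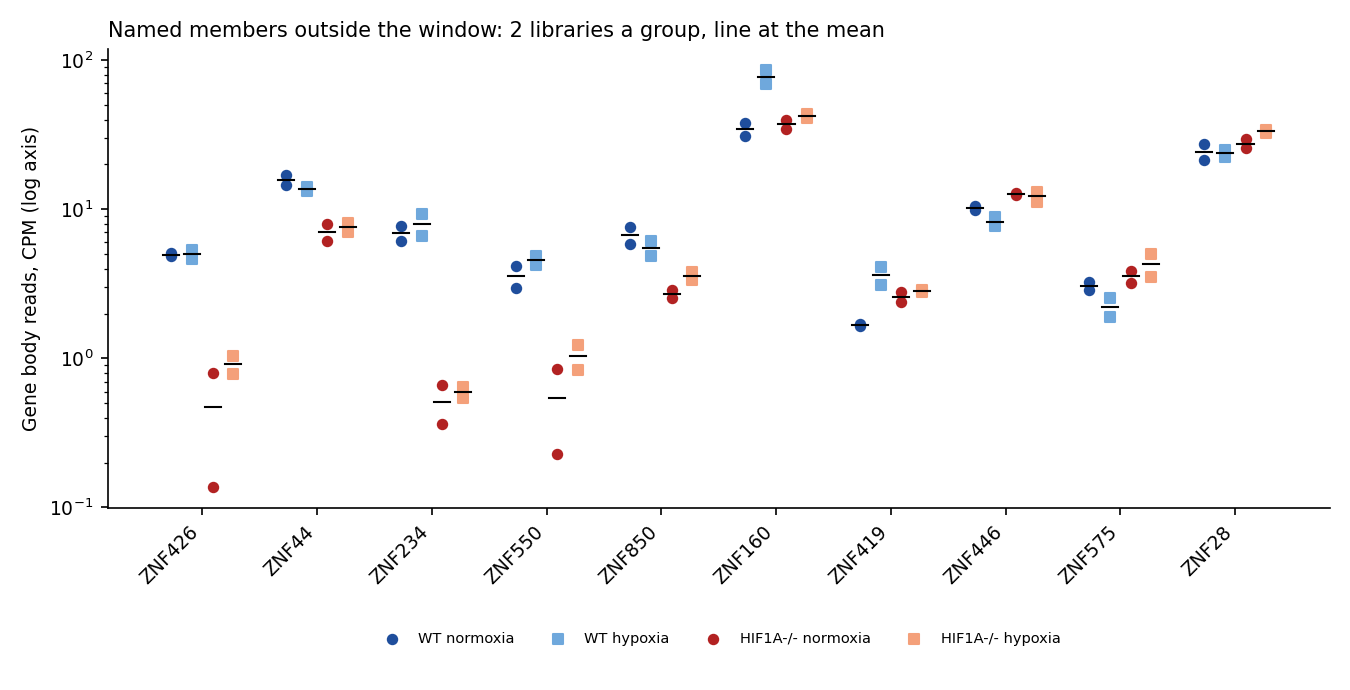
Gene body reads in CPM (log axis) of 10 named members outside the window, with 1 point a library, 2 libraries in each of the 4 groups and a line at each group mean. ZNF234, ZNF426 and ZNF550 have lower values in all 4 HIF1A-/- libraries than in all 4 WT libraries, and ZNF160 is highest in the 2 WT hypoxia libraries.

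Genes of the corepressor machinery that KRAB zinc finger proteins use were set beside the members. Of 26 such genes tested, 0 were called in either genotype comparison or with hypoxia in either line, with median log2 differences between the genotypes of −0.05 in normoxia and −0.01 in hypoxia. At the shares called over all gene bodies in these comparisons (at most 2.79% in either direction), a list of 26 would hold few calls or none. DESeq2 called 1 higher in hypoxia between the genotypes, and 1 gene was under an unadjusted p of 0.05 in each of these 4 comparisons. With the block 1 was lower and 0 higher in normoxia (6.39% and 3.93% of all gene bodies), and 5 were higher and 2 lower in hypoxia (13.1% and 15.1%). The largest genotype difference of the list in hypoxia was that of DNMT3B, with means of 57.4 CPM in WT and 87.9 CPM in HIF1A-/- libraries. Its log2 difference was 0.60 (edgeR adjusted p = 0.161, 0.00677 with the block). TRIM28 itself, also on chromosome 19, had 97.2 and 85.0 CPM in WT normoxia against 112 and 85.0 CPM in HIF1A-/- normoxia, groups that overlapped. In hypoxia it had 93.6 and 59.4 CPM in WT against 109 and 87.9 CPM in HIF1A-/- cells, groups that overlapped but with the HIF1A-/- library higher in both replicate pairs (log2 difference 0.36, edgeR adjusted p = 0.570, 0.0524 with the block, under which it was 1 of the 5 called higher). SETDB1 ranged from 39.2 to 45.7 CPM over all 8 libraries.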

How the data were processed

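PRO-seq libraries from HCT116 WT and HIF1A-/- cells in normoxia or hypoxia (2 independent nuclei replicates per group) were used. The deposited values are raw read counts per gene, made by the authors with featureCounts (Subread 1.6.2) after alignment to GRCh37 (hg19) with HISAT2 2.1.0, for a TSS region of 551 bp and a gene body that starts further downstream. Counts are strand-specific. A row fully overlapped by another gene on the same strand received no or few reads, which affected 5 rows, none of them members. Groups came from the sample titles.

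Rows with CPM above 0.5 in at least 2 libraries were fitted together (edgeR 4.0.16 in R 4.3.3, TMM, glmQLFit and glmQLFTest, 4 group means) and p-values were adjusted by Benjamini-Hochberg over all genes. CPM uses library totals. RPKM divides CPM by gene body length. Error bars are standard errors from the fit. Floors were 3 counts a library. Same-numbered libraries deviated together in all 6 pairs of groups (r = 0.481 to 0.789 in gene bodies, 0.216 to 0.518 at the TSS), so the replicate numbers were taken to pair the libraries. Alternatives were the replicate block, DESeq2 1.42.0, library totals without TMM, no filter, only the groups compared, and leaving out each library. In simulated data for the normoxia comparison, the fit recovered 50% of genes changed 2-fold and 97% of those changed 4-fold. The simulated libraries were independent and all genes shared a single estimate of the spread, unlike the paired libraries here. Recovery for single members was therefore not measured.

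Named genes were all window members, the 5 with smallest p in each direction per genotype comparison (3 for hypoxia in WT) among members whose groups did not overlap, the rows nearest the filter, and corepressor genes called. Genes outside this rule were named after their values were seen. Members, window and lists were chosen with earlier results of these data known. Promoters were read from the GRCh37 genome. With 2 libraries a group, p-values measure the spread between these libraries only.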

Additional observations from a re-analysis of the deposited data

Results flagged for a closer look

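ZNF160 differed between the genotypes in its response to hypoxia by a test of the difference itself with the replicate block (log2 difference 0.98, edgeR adjusted p = 0.0623 with the block and 0.645 without it), being higher in both WT hypoxia libraries than in the 6 others. With the block, 64 of all 16686 gene bodies were called higher for this difference and 0 lower.

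A set of 5 rows had too few gene body reads to be members but passed the filter at the TSS. ZNF20 had a mean of 4.88 CPM at the TSS in WT normoxia and 0 reads in the gene body of every library, where another gene covers it on the same strand. Its TSS values were 4.51 and 5.25 CPM in WT normoxia and 6.94 and 6.87 CPM in WT hypoxia, against 0 and 0.233 CPM in HIF1A-/- normoxia and 0 in both HIF1A-/- hypoxia libraries, where it was at least 8.14-fold lower. ZNF20 passed the TSS filter only through its WT libraries and was named after its values were seen. They are therefore given as a description. The other 4 were near the filter, with means in WT normoxia of 0.939 CPM for ZNF556, 0.244 CPM for ZNF177, 0.338 CPM for ZNF8 and 0.600 CPM for ZNF132.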

How the results depend on the processing

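Window medians kept their sign under every alternative run. Leaving out 1 library at a time, they ran from −0.991 to −0.893 (gene body, normoxia), −0.870 to −0.849 (gene body, hypoxia), −1.17 to −0.680 (TSS, normoxia) and −1.02 to −0.585 (TSS, hypoxia). The replicate block raised most counts of members: outside the window to 9 lower in normoxia, 16 higher and 13 lower in hypoxia (gene body), to 1 higher and 6 lower in normoxia and 6 higher and 15 lower in hypoxia (TSS), and with hypoxia in WT cells to 2 higher and 1 lower, with 1 member called for the difference between genotypes (also 1 with DESeq2). Fits of only the 2 groups compared gave 2 lower in normoxia in gene bodies, and 2 higher and 8 lower in hypoxia at the TSS. Library totals without TMM gave 3 lower in hypoxia in gene bodies. Without the filter on low counts, TSS calls were 1 higher in normoxia and 2 higher and 8 lower in hypoxia, and DESeq2 gave 1 higher in hypoxia at the TSS. Leaving out 1 library at a time gave 1 to 4 lower in normoxia and 1 to 5 lower in hypoxia (gene body), 0 to 1 higher and 2 to 4 lower in normoxia and 0 to 1 higher and 2 to 6 lower in hypoxia (TSS), and 0 to 1 higher with hypoxia in WT cells. Where a group then had a single library, it was assumed to vary like the others. No named member reversed its direction under any alternative, but of 130 refits of the 10 called results for named members outside the window, 43 lost the call, and of 208 refits of the 16 results not called, 9 gained one. The cause of these changes was not tested. The 2 libraries a group and gene bodies of few reads (ZNF426, ZNF550) limit what can be called.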

Other observations

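Members carried more polymerase near their start, relative to the gene body, than genes in general. The ratio of TSS to gene body signal was taken in CPM per base, with each region scaled to its own library total. It is therefore not a ratio of raw read densities. Its median over 156 members was 76.7 to 85.1 in the 4 WT libraries and 68.9 to 74.8 in the 4 HIF1A-/- libraries, which did not overlap. Over all 14494 genes that passed both filters it was 45.6 to 49.1 and 44.4 to 46.1. Over the 12 window members it was 132 to 170. The median gene body was 17.3 kb for members and 25.1 kb for all genes tested. The ranges of the window members overlapped between the lines. So did the TSS read totals, at 3813025 to 5966348 in WT and 2783581 to 4288308 in HIF1A-/- libraries. The scaling divides out these totals, so the ratio does not show differences between libraries in total TSS reads. The cause of the lower ratio of members in HIF1A-/- libraries was not tested.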
